A study of Coprinopsis cinerea with 29 samples.

Results

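The stipe of the mature fruiting body (FB_S) was compared with its cap and lamellae, harvested as 1 sample type (FB_CL), in Coprinopsis cinerea, an inky cap mushroom that fruits on agar. The 6 libraries, 3 of FB_S and 3 of FB_CL, were taken by their titles from the 29 libraries of the series, and the counts were all reads assigned to a gene model. Each of the 14242 gene models was then asked whether its mature difference was already there between the young stipe (YFB_S) and the young cap (YFB_C) or young lamellae (YFB_L), with 3 libraries each. All groups were of strain #326 (A43mut B43mut pab 1-1), whose mutated mating-type factors let a single strain fruit without a mate, so every library carries these alleles. Colonies were kept in darkness at 37 °C for 5 days and fruited at 25 °C with 12 h of light and 12 h of dark. The remaining groups of the series, used below only as earlier stages, were vegetative mycelium (VM, n = 3), secondary hyphal knots (H, n = 3) and primordia of stage 1 (P1, n = 4) and stage 2 (P2, n = 4).

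In an inky cap the stipe is a column of hyphae that elongates rapidly at the end of development and lifts the cap. The lamellae hang below the cap and carry the basidia, the cells in which meiosis takes place and on which the spores form. The mature cap of these fungi darkens with spores and then digests itself, while the stipe stays upright. Cap and lamellae were separated in the young fruiting body and were not separated in the mature one, so the mature cap with lamellae has no single young counterpart. In such bulk samples a lower share of 1 tissue or cell type and less RNA per cell cannot be told apart. The deposited files pair the gene models with no name or product, so gene models are given by number, no role is stated, and the tissue labels could not be set against marker genes.

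The mature libraries held 14445914 to 26367400 reads and the young ones 15856824 to 32199674, and 11990 gene models passed the filter on low counts. Libraries of a mature tissue resembled each other closely. Across genes, which are not independent replicates, log2 CPM correlated at 0.978 to 0.985 among FB_S libraries and at 0.972 to 0.985 among FB_CL libraries, against 0.825 to 0.836 between the 2 tissues. YFB_C replicate 3 and YFB_L replicate 1 stood apart from their groups. YFB_C replicate 3 correlated at 0.926 and 0.928 with the other two young cap libraries, which reached 0.988 with each other, and YFB_L replicate 1 at 0.885 and 0.867 with the other two young lamellae libraries, which reached 0.991. Both were nearer to both mature tissues than the other libraries of their groups were. The mean correlation with FB_CL was 0.803 for YFB_C replicate 3, against 0.765 and 0.758 for replicates 1 and 2, and 0.743 for YFB_L replicate 1, against 0.699 and 0.686 for replicates 2 and 3. With FB_S it was 0.822 for YFB_C replicate 3, against 0.789 for each of replicates 1 and 2, and 0.716 for YFB_L replicate 1, against 0.699 and 0.685. Counts of the classes below are therefore also given without these 2 libraries, while medians, read shares and levels of the sets are for all libraries. All 15 fruiting body libraries share a flow cell. Whether replicates are separate cultures is not stated in the labels. The p-values therefore measure the spread between these libraries, which may in part be technical.

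The mature stipe and the mature cap with lamellae differed in a large part of the transcriptome, and the largest differences were transcripts far lower in the stipe. Of the tested gene models, 2316 were higher and 2435 were lower in FB_S than in FB_CL, which is 19.3% and 20.3% of the 11990, or 39.6% in all. A gene model was called where edgeR's quasi-likelihood test gave a Benjamini-Hochberg adjusted p under 0.05 and the change was at least 2-fold. At the 2-fold threshold the directions were close to even, but 1431 gene models were at least 4-fold lower in FB_S and 850 at least 4-fold higher. At 8-fold the counts were 844 lower and 300 higher, at 64-fold 165 and 24, and at 1024-fold 8 and 0. The median log2 change of the called gene models was 1.72 for those higher in FB_S and -2.32 for those lower. The split between the directions depends on how the libraries are scaled. With library size alone in place of TMM factors, which shifts the median log2 change of all tested gene models by 0.45, 3678 were higher and 1769 lower, and 1447 and 1103 at 4-fold, while at 8-fold 473 were higher and 644 lower. From 8-fold upwards more gene models were thus lower than higher in FB_S under each scaling that was run.

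**Figure D1:**
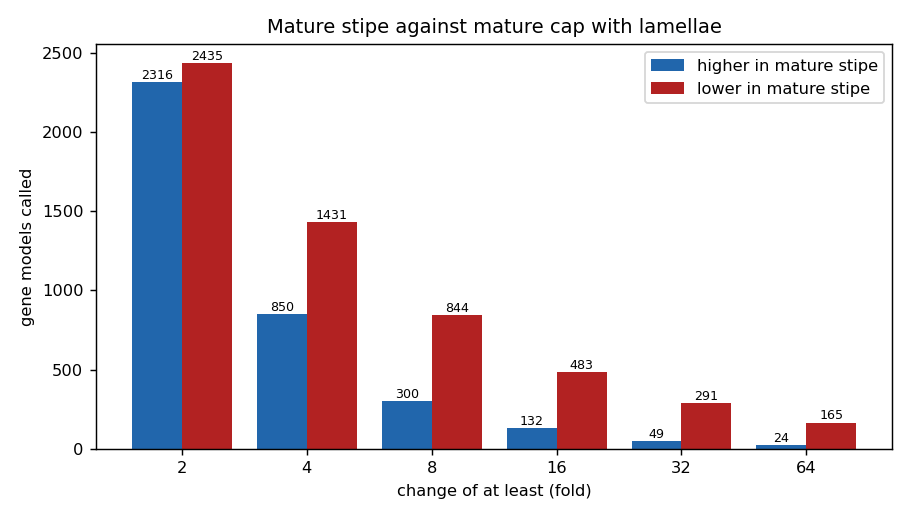
Number of gene models called between mature stipe and mature cap with lamellae (vertical axis) at rising thresholds of fold change (horizontal axis), for gene models higher and lower in the mature stipe. The bars are nearly equal at 2-fold, with 2316 higher and 2435 lower, and part at larger changes, with 24 higher and 165 lower at 64-fold.

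The called gene models also held very different parts of the messenger pool. Those called higher in FB_S took 29.1% ± 1.13 of the reads in FB_S and 4.76% ± 0.412 in FB_CL (SD, n = 3 each). Those called lower took 7.31% ± 0.0595 of the reads in FB_S and 48.7% ± 1.19 in FB_CL (SD, n = 3 each). These shares describe sets chosen from the same libraries and were not tested. The levels of the 2 tissues did not overlap in 2274 of the 2316 gene models called higher and in 2384 of the 2435 called lower, beside 63.1% of all tested gene models with levels that did not overlap. Few differences were all or none: 19 gene models called higher had 0 reads in all 3 FB_CL libraries, and 20 called lower had 0 reads in all 3 FB_S libraries. Among the most abundant transcripts, counted per length as RPKM, 40 were on the list of the highest 100 in both tissues. Of the 100 highest in FB_S, 35 were called higher there, 5 lower and 60 not called. Of the 100 highest in FB_CL, 61 were called lower in FB_S, 1 higher and 38 not called.

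Gene model 457420 had the largest rise in the stipe among those with enough expression, and it is also the second of the gene models described below whose difference was carried over. Its level was 1687, 1092 and 1718 CPM in the FB_S libraries, against 3.16, 2.86 and 3.23 CPM in FB_CL. CPM are reads scaled to the TMM-corrected size of the library. The FB_S libraries all lay far above the FB_CL libraries, and the log2 change was 8.92 ± 1.00 (SE, edgeR adjusted p = 1.28e-07). In gene model 468948 the levels were 107.0, 101.2 and 159.6 CPM in FB_S, against 1.24, 0.347 and 0.119 CPM in FB_CL. The groups did not overlap, and the log2 change was 7.83 ± 1.17 (SE, edgeR adjusted p = 7.04e-06). It was 8.92 without FB_CL replicate 1, the highest of the 3 cap libraries. In the young fruiting body it had 3.32, 2.94 and 38.5 CPM in YFB_S, against 0.327, 0.546 and 0.187 CPM in YFB_C and 2.85, 2.96 and 2.95 CPM in YFB_L. The young stipe lay above the young cap in every library, but only replicate 3 lay clearly above the young lamellae. Its log2 change against YFB_L was 2.34 (edgeR adjusted p = 0.0262), and 0.10 without YFB_S replicate 3 (adjusted p = 0.93). It was not called either without any 1 of the YFB_L libraries (adjusted p = 0.0566 to 0.0637). Against YFB_C the change was 5.40 (edgeR adjusted p = 0.00038), or 3.16 without YFB_S replicate 3.

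Gene model 363390 had 0 CPM in FB_S replicates 1 and 3 and 0.193 CPM in replicate 2, against 125.5, 388.6 and 272.6 CPM in the FB_CL libraries. Only 2 reads fell on it in the 3 stipe libraries together, and the stipe rate pooled over these libraries was 4662-fold lower than the mean FB_CL level. This ratio had an exact Poisson 95% interval of 1291 to 38498 that covers counting error only. Both reads were in FB_S replicate 2. Leaving it out and taking 3 reads over the remaining stipe libraries as the floor, the level was at least 2203-fold lower. Without FB_S replicate 1 or 3 the ratio was 2997-fold or 3023-fold lower. Its fitted log2 change of -12.03 had an edgeR adjusted p of 0.000204. The spread is estimated over all libraries, and without YFB_C replicate 3 and YFB_L replicate 1 the change was -12.04 (edgeR adjusted p = 2.84e-10). Gene model 496007 was at 0.473, 2.03 and 0.96 CPM in FB_S, against 2754, 4335 and 2733 CPM in FB_CL. The groups did not overlap, and the log2 change was -11.49 ± 2.38 (SE, edgeR adjusted p = 0.000326), or -12.15 without FB_S replicate 2. Without the same young libraries, YFB_C replicate 3 and YFB_L replicate 1, it was -11.50 (edgeR adjusted p = 1.64e-07). Its rank by RPKM among the tested gene models was 9495 in FB_S and 44 in FB_CL. In the young fruiting body both gene models were high in 1 library, YFB_L replicate 1. There 363390 reached 203.9 CPM, against 0.0406 and 0.0634 CPM in the other two lamellae libraries, and 496007 reached 411.0 CPM, against 0.203 and 0.317 CPM. With that library, 496007 was lower in the young stipe than in young lamellae, with a log2 change of -4.64 (edgeR adjusted p = 0.0311), and without it it was higher, with 4.35 (edgeR adjusted p = 0.0233). The lower call was also lost without any 1 of the YFB_S libraries (adjusted p = 0.0728 to 0.0934). Gene model 363390 had 0 reads in YFB_S, and was called lower there than in YFB_L (-13.51, edgeR adjusted p = 0.000325) but not than in YFB_C (adjusted p = 0.138). Without YFB_C replicate 3 and YFB_L replicate 1 it was called against YFB_C (-5.45, edgeR adjusted p = 0.0273) and not against YFB_L (-3.34, adjusted p = 0.194). In either fit it counts as called the same way against 1 young tissue.

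Of the mature differences, 49% had a young counterpart of the same direction, mostly against 1 of the 2 young tissues. Of the 4751 gene models called between FB_S and FB_CL, 640 were called the same way against both the young cap and the young lamellae, and 1689 against 1 of the 2. A further 758 were called the opposite way against at least 1 young tissue and the same way against neither. The remaining 1664, 35% of the mature calls, were called in neither young comparison. Without YFB_C replicate 3 and YFB_L replicate 1, 48.1% of the 5063 mature calls had a young counterpart of the same direction, and 35.4% were called in neither young comparison. The same shares were not counted over all tested gene models. The 49% and 35% therefore describe the mature calls only, and 35% is not a measure of what was new at maturity. In the young comparisons themselves 1813 gene models (15.1%) were higher and 2099 (17.5%) lower in YFB_S than in YFB_C, 32.6% in all, and 2174 (18.1%) higher and 2811 (23.4%) lower in YFB_S than in YFB_L, 41.6% in all. The mature comparison shares no library with either of them, while both young comparisons share the 3 young stipe libraries.

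A young difference that misses the threshold is not shown to be absent, so the change from young to mature was tested as well. This is the mature difference minus the young one, tested in the same model. Against the young cap 4498 gene models (37.5%) passed, 2316 (19.3%) towards the stipe and 2182 (18.2%) away from it, and against the young lamellae 4748 (39.6%), 2506 (20.9%) towards the stipe and 2242 (18.7%) away from it. Of the 1664 gene models called in neither young comparison, 809 had a mature difference larger than both young ones by this test, and are called larger at maturity below. The other 855 passed at maturity and not in the young tissues without the growth itself passing against both. For these the data do not show whether the difference was new. Choosing the 1664 by a mature call and no young call favours passing the test of the change. The count of 809 thus describes the chosen gene models, and was not set beside the share of all tested gene models passing against both. Among the 640 carried-over gene models, the difference was larger at maturity than in both young comparisons for 54, smaller than in both for 19, and for 403 neither test passed. Without the 2 young libraries these numbers were 64, 29 and 345 of 613, and 858 gene models were called in neither young comparison without being larger by the test.

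The classes were counted for each direction. Of the gene models called higher in FB_S, 313 (13.5%) were carried over, 628 (27.1%) were called the same way against 1 young tissue, and 955 (41.2%) were not called in either young comparison. Of those called lower in FB_S, 327 (13.4%) were carried over, 1061 (43.6%) were called the same way against 1 young tissue, and 709 (29.1%) in neither comparison. Larger at maturity by the test were 407 (17.6%) of the higher and 402 (16.5%) of the lower, and 420 (18.1%) and 338 (13.9%) had turned round. The class called the same way against 1 young tissue was not uniform. It held 75 higher and 216 lower gene models that were called the opposite way against the other young tissue. With library size alone, which calls 3678 higher and 1769 lower, 444 of the higher (12.1%) and 217 of the lower (12.3%) were carried over, 646 (17.6%) and 214 (12.1%) were larger at maturity, and 636 (17.3%) and 289 (16.3%) had turned round. Among the changes from young to mature with the young lamellae 4093 were then towards the stipe and 1321 away from it. Shares of the 2 directions were not tested against each other, and were not set beside shares of all tested gene models.

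**Figure D2:**
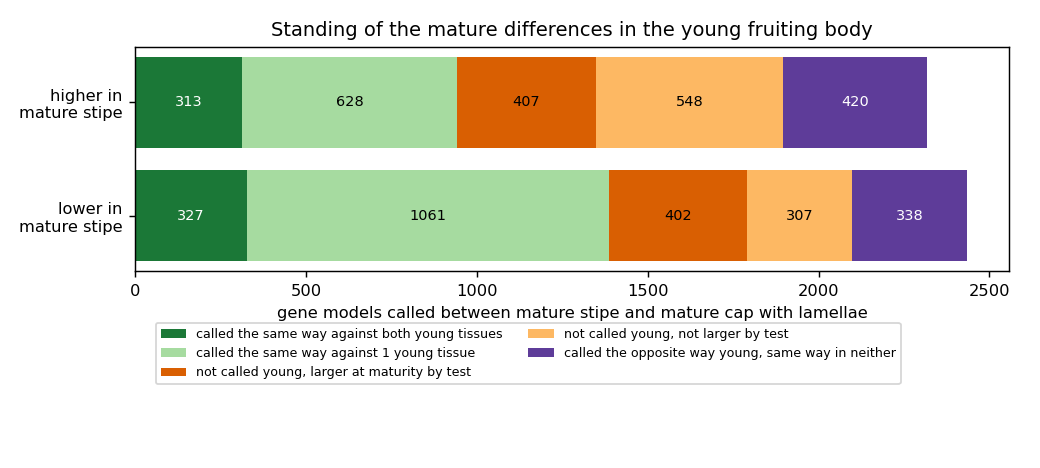
Number of gene models called between mature stipe and mature cap with lamellae (horizontal axis) for those higher (upper bar) and lower (lower bar) in the mature stipe, divided by how they stood in the young comparisons. The segment called the same way against 1 young tissue is the widest among the lower gene models, with 1061, against 628 among the higher ones.

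Mature differences had the direction of the young ones more often than all gene models did. Of those called higher in FB_S, 23.7% were also called higher in YFB_S than in YFB_C, against 15.1% of all tested gene models, and 30.4% were called higher than in YFB_L, against 18.1%. Of those called lower, 28.9% were also lower against YFB_C, against 17.5% of all, and 41.5% were lower against YFB_L, against 23.4%. The opposite call was less frequent than among all tested gene models in each of the 4 cases. It was found for 12% and 12.7% of those called higher, against YFB_C and YFB_L, where 17.5% and 23.4% of all were called lower. It was found for 12.7% and 13.6% of those called lower, where 15.1% and 18.1% of all were called higher. Without the 2 libraries that stood apart, the opposite shares were 10.1% and 12.5% of the higher and 13.1% and 17.3% of the lower, where 15.5%, 21.6%, 14.4% and 22.2% of all were called that way. In the same fit the same-way shares were 22.7% and 33.2% of the higher and 26.3% and 38% of the lower gene models, against 14.4%, 22.2%, 15.5% and 21.6% of all. Across all 11990 gene models the log2 change at maturity correlated at 0.234 with that of the young stipe against the young cap and at 0.308 with that against the young lamellae. Without the 2 young libraries these values were 0.212 and 0.246. With library size alone 33.3% of the higher and 24.1% of the lower gene models were called the same way against YFB_C, against 24.8% and 11.9% of all, so which direction had the larger share against the young cap depends on the scaling. These are descriptions across genes of libraries with a common preparation, and no test was made of the shares.

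**Figure D3:**
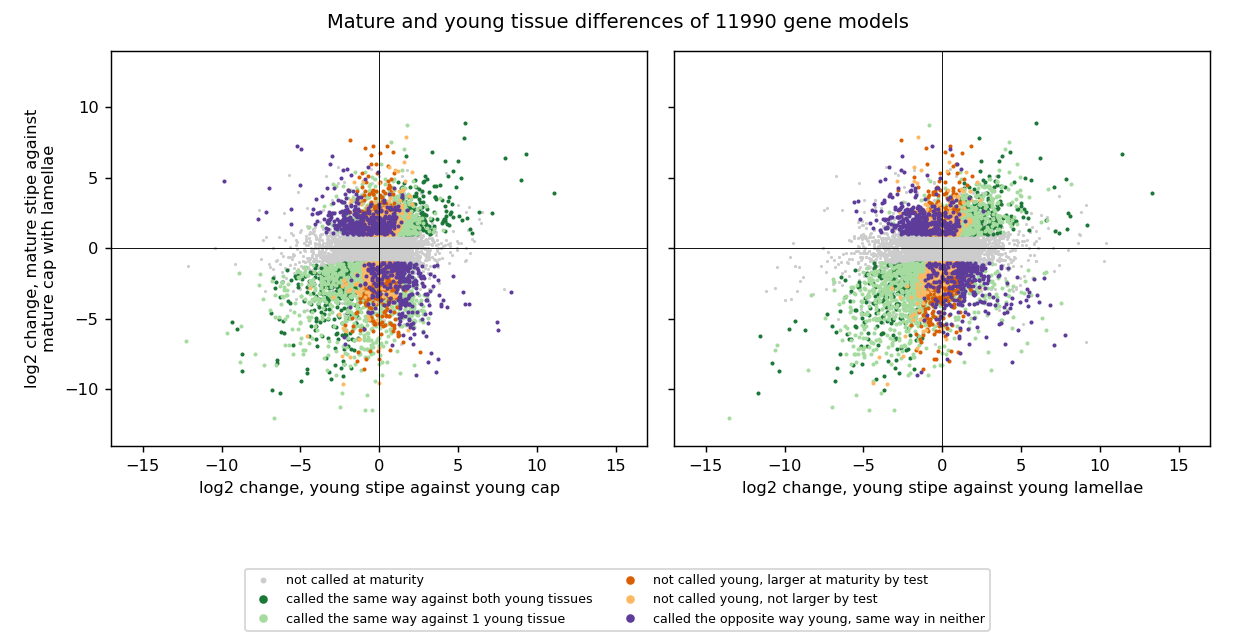
Log2 change of each tested gene model between mature stipe and mature cap with lamellae (vertical axis) against its log2 change between young stipe and young cap (left) or young lamellae (right), coloured by its standing. The cloud is wide in both panels, with correlations of 0.234 and 0.308, and all 4 quadrants hold called gene models.

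The same calls can be read from the young fruiting body. Of 796 gene models higher in YFB_S than in both YFB_C and YFB_L, 313 (39.3%) were also higher in FB_S than in FB_CL, beside 19.3% of all tested gene models. A further 85 (10.7%) were lower, beside 20.3% of all, and 398 were not called. Of 797 lower in YFB_S than in both, 327 (41%) were also lower in FB_S, beside 20.3% of all, 77 (9.66%) were higher, beside 19.3% of all, and 393 were not called. Without the 2 young libraries 36.7% of 905 and 42.3% of 665 were called the same way at maturity.

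The gene models carried over as higher in the stipe had a median log2 change of 1.98 at maturity, and of 1.84 against the young cap and 2.04 against the young lamellae. Those carried over as lower had medians of -2.61, -2.36 and -2.58. The choice of these gene models fixes that the changes agree in direction, so the medians only describe their size. The carried-over gene models lower in the stipe took 0.633% ± 0.0498 of the reads in FB_S and 11.1% ± 0.983 in FB_CL (SD, n = 3 each). Gene model 448287, described below, made up a large part of this, and without it the share was 0.617% ± 0.0426 in FB_S and 6.43% ± 0.469 in FB_CL (SD, n = 3 each), a value added after seeing the data. Without YFB_C replicate 3 this gene model does not belong to the set. In the young fruiting body they took 0.491% ± 0.0932 in YFB_S (SD, n = 3), and 2.39%, 2.57% and 3.56% in the YFB_C libraries and 7.18%, 3.58% and 3.52% in the YFB_L libraries. YFB_L replicate 1 was the highest of the lamellae libraries and YFB_C replicate 3 the highest of the cap libraries. Those higher in the stipe took 3.55% ± 0.29 in FB_S, 0.654% ± 0.133 in FB_CL and 5.56% ± 0.421 in YFB_S (SD, n = 3 each). Of these, 160 of 313 or 51.1% had their highest mean of all 9 groups in the young stipe, and 99 (31.6%) had it in the mature stipe. Among all tested gene models these shares were 13.9% and 16.2%. The cap and lamellae groups could not be the highest in this set, since the choice puts them below the stipe.

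Gene model 547131 was far higher in the stipe at both stages. It stood at 733.4, 4161 and 2017 CPM in FB_S, against 48.4, 10.8 and 6.81 CPM in FB_CL. In the young fruiting body it had 1128, 243.5 and 2995 CPM in YFB_S, against 0.982, 1.64 and 4.18 CPM in YFB_C and 0.819, 0.365 and 0.412 CPM in YFB_L. Stipe libraries of either stage lay above all cap and lamellae libraries, although they spread widely among themselves. The log2 change was 6.72 ± 1.04 at maturity (SE, edgeR adjusted p = 1.11e-05), 9.32 ± 1.17 against YFB_C (SE, adjusted p = 1.34e-06) and 11.40 ± 1.27 against YFB_L (SE, adjusted p = 1.93e-07). The mature value was 5.97 without FB_S replicate 2 and 8.03 without FB_CL replicate 1. Without YFB_S replicate 3 the young values were 8.23 and 10.31, and without YFB_C replicate 3 that against YFB_C was 10.12. Hyphal knots and primordia held 2043 to 13127 CPM, so the low levels were those of the cap and lamellae.

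For gene model 457420, the young levels were 153.8, 212.0 and 1354 CPM in YFB_S, against 8.38, 25.9 and 5.62 CPM in YFB_C and 6.2, 14 and 8.12 CPM in YFB_L. The young stipe libraries lay above those of young cap and lamellae, and replicate 3 was far above the other two. The log2 change was 5.43 ± 0.85 against YFB_C (SE, edgeR adjusted p = 2.23e-05) and 5.92 ± 0.87 against YFB_L (SE, adjusted p = 6.9e-06). Without YFB_S replicate 3 these were 3.78 and 4.27, and the value against YFB_C was 6.36 without YFB_C replicate 2. Primordia held 1030 to 4080 CPM of this gene model and mycelium 5.51 to 40.4 CPM.

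Gene model 448287 was the most abundant of all tested gene models in the mature cap with lamellae, per length, and it alone took 4.2%, 5.34% and 4.45% of the reads in the FB_CL libraries. Its level was 387.2, 195.8 and 165.5 CPM in FB_S, against 83469, 122266 and 102077 CPM in FB_CL. The groups lay far apart, and the log2 change was -8.68 ± 2.24 (SE, edgeR adjusted p = 0.00254). The spread behind this SE and p is estimated over all 29 libraries, including the young ones. Without YFB_C replicate 3 and YFB_L replicate 1 the mature change was again -8.68 (edgeR adjusted p = 1.76e-07). Young levels were 1.33, 3.73 and 2.36 CPM in YFB_S. They were 11.5, 5.69 and 3036 CPM in YFB_C and 9622, 24.9 and 10.4 CPM in YFB_L, so nearly all of its young level came from YFB_C replicate 3 and YFB_L replicate 1. Its young differences were -8.69 against YFB_C and -10.35 against YFB_L (edgeR adjusted p = 0.00352 and 0.00098). Leaving out YFB_C replicate 3 turned the value against YFB_C to -1.81, not called (adjusted p = 0.362). Leaving out YFB_L replicate 1 turned the one against YFB_L to -2.84, not called (adjusted p = 0.0971). Without both libraries the mature difference exceeded the young ones by -6.88 against YFB_C (edgeR adjusted p = 0.000129) and -5.85 against YFB_L (adjusted p = 0.000433). In that fit its value against YFB_L, again -2.84, was called (edgeR adjusted p = 0.0062), and that against YFB_C was not (adjusted p = 0.0864), so it then counts as called the same way against 1 young tissue. Mycelium, hyphal knots and primordia held at most 3.06 CPM. Its standing as carried over thus rests on these 2 libraries.

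Gene model 427911 was low in the stipe of either stage, and higher in the young than in the mature cap and lamellae. It stood at 0.709, 0.193 and 0.32 CPM in FB_S, against 22.8, 131.2 and 70.4 CPM in FB_CL. It had 22.1, 3.03 and 12.4 CPM in YFB_S, against 1191, 2295 and 11911 CPM in YFB_C and 2293, 504.6 and 496.5 CPM in YFB_L. Stipe and cap or lamellae libraries of a stage did not overlap. The log2 change was -7.47 ± 1.05 at maturity (SE, edgeR adjusted p = 2.78e-06), -8.67 ± 1.04 against YFB_C (SE, adjusted p = 7.02e-07) and -6.45 ± 0.94 against YFB_L (SE, adjusted p = 6.48e-06). The mature value was -8.14 without FB_S replicate 1 and -6.79 without FB_CL replicate 2. Without YFB_C replicate 3 the value against YFB_C was -7.12, and without YFB_L replicate 1 that against YFB_L was -5.32. Without YFB_S replicate 1 they were -9.38 and -7.15. Earlier stages held 6.27 to 33.2 CPM.

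For the gene models whose differences were larger at maturity, the medians of the sets shifted in both tissues. How many single gene models shifted in both was not counted. For the 407 higher in the stipe, the median log2 shift was 1.01 for FB_S relative to YFB_S and -1 for FB_CL relative to the mean of YFB_C and YFB_L. For the 402 lower in the stipe it was -0.81 for the stipe and 1.53 for the cap with lamellae. The medians over all tested gene models were 0.00 and -0.05. The stipe shifted more than the cap side in 212 of the 407 and in 162 of the 402 gene models with TMM scaling, but in 111 and 250 with library size alone, so which tissue moved more depends on the scaling. With library size alone the medians over all tested gene models were -0.60 for the stipe and -1 for the cap side. The median shifts were then 0.35 and -1.93 for the 407, and -1.41 and 0.53 for the 402. That the 2 sides moved apart follows from the choice of these gene models.

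The choice of these sets used the mycelium, knots and primordia only through the shared filter, scaling and estimate of spread. In those groups the median log2 CPM was 4.76 to 4.80 for the first set and 4.86 to 5.07 for the second, beside 5.48 in FB_S and 6.44 in FB_CL. Both sets were therefore expressed in the earlier stages too, where the medians of all tested gene models were 4.50 to 4.59. Of the 407 gene models 211 (51.8%) had their highest mean of all 9 groups in FB_S, and of the 402 gene models 273 (67.9%) had it in FB_CL, which the choice of the sets favours. Among all tested gene models 16.2% had it in FB_S and 16.5% in FB_CL. The first set took 4.77% ± 0.188 of the reads in FB_S and 0.712% ± 0.0664 in FB_CL (SD, n = 3 each). The second took 1.28% ± 0.0166 in FB_S and 6.09% ± 0.0499 in FB_CL (SD, n = 3 each).

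**Figure D4:**
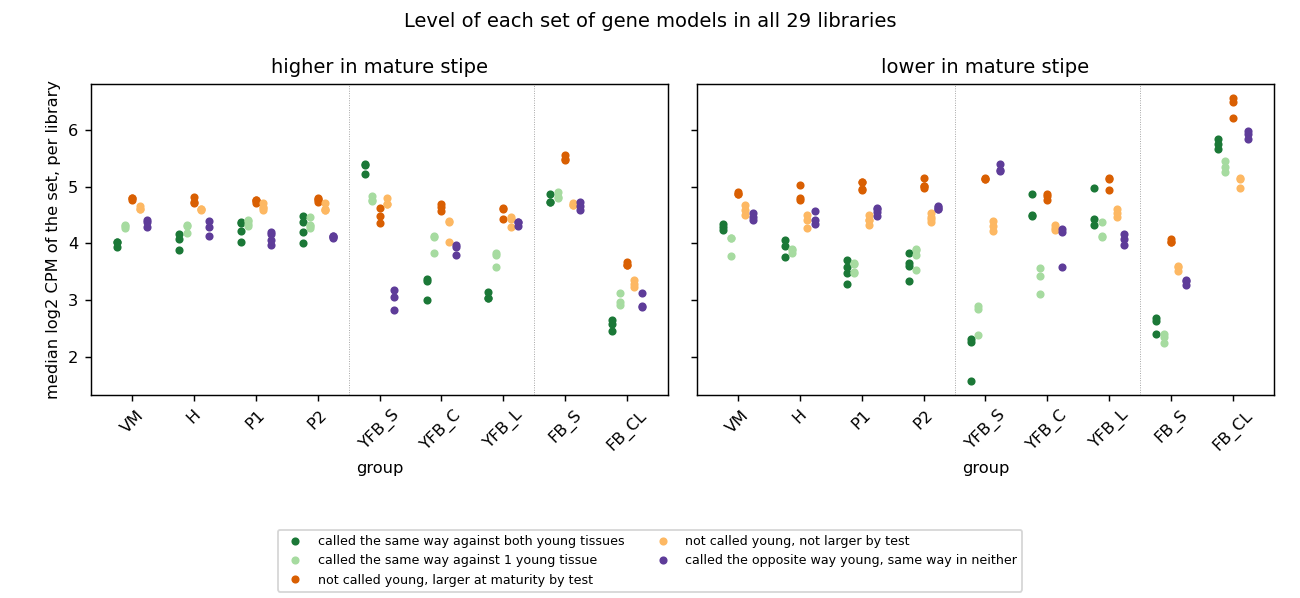
Median log2 CPM of each set of gene models (vertical axis) in each of the 29 libraries, arranged by group from mycelium to the mature fruiting body (horizontal axis), for gene models higher (left) and lower (right) in the mature stipe. In the left panel the carried-over set is highest in the young stipe libraries, at 5.38, 5.41 and 5.22. In the right panel the set larger at maturity reaches 6.22, 6.57 and 6.5 in the libraries of mature cap with lamellae.

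Gene model 496246 was at 3201, 2755 and 2878 CPM in FB_S, against 16.4, 23.5 and 18.2 CPM in FB_CL. In the young fruiting body it had 22.7, 51.8 and 73.8 CPM in YFB_S, against 47.6, 52.7 and 98.8 CPM in YFB_C and 11.9, 43.4 and 49.4 CPM in YFB_L. The 3 mature stipe libraries stood alone at a high level, while the young tissues overlapped. Its mature log2 change was 7.25 ± 0.54 (SE, edgeR adjusted p = 2.9e-10) and exceeded that against YFB_C by 7.67 ± 0.65 (SE, adjusted p = 3.44e-09) and that against YFB_L by 6.74 ± 0.64 (SE, adjusted p = 3e-08). All earlier libraries held 18.6 to 86.3 CPM. Gene model 459905 was at 45.2, 124.3 and 31.7 CPM in FB_S, against 2.06, 1.56 and 2.51 CPM in FB_CL. Young levels were 0.73, 0.419 and 0.295 CPM in YFB_S, 0.524, 0.936 and 2.12 CPM in YFB_C and 0.926, 1.78 and 2.47 CPM in YFB_L. It too was high in the mature stipe libraries alone. Its mature log2 change was 5.04 ± 0.82 (SE, edgeR adjusted p = 2.03e-05), or 4.24 without FB_S replicate 2. It exceeded the young changes by 6.30 ± 1.13 against YFB_C and 6.83 ± 1.11 against YFB_L (SE, adjusted p = 9.62e-05 and 3.53e-05). Without FB_S replicate 2 these were 5.50 and 6.03, and that against YFB_C was 5.57 without YFB_C replicate 3. Without FB_S replicate 2 or YFB_L replicate 1 it was called lower in YFB_S than in YFB_L, with -1.79 and -2.08, so its mature difference then counts as turned round.

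Gene model 357877 was at 0.236, 0.193 and 0.4 CPM in FB_S, against 76.6, 51.3 and 69.0 CPM in FB_CL. In the young tissues it had only 3 reads in YFB_S, 2 in YFB_C and 5 in YFB_L in all. It was thus nearly undetected in the young fruiting body and high in the mature cap with lamellae alone. The mature log2 change was -7.84 ± 0.80 (SE, edgeR adjusted p = 3.36e-08) and exceeded the young ones by -7.81 ± 2.01 against YFB_C and -7.44 ± 1.92 against YFB_L (SE, adjusted p = 0.00338 and 0.00325). With so few young reads these excesses depend on single libraries, and they were -10.96 without YFB_C replicate 1 and -8.18 without YFB_L replicate 2. Gene model 459625 was at 4.1, 5.31 and 20.5 CPM in FB_S, against 2853, 4337 and 4288 CPM in FB_CL. Young levels were 1.76, 2.0 and 1.41 CPM in YFB_S, 4.58, 3.2 and 2.43 CPM in YFB_C and 1.07, 5.84 and 5.29 CPM in YFB_L. The mature cap libraries stood alone, and earlier stages held 0.839 to 4.59 CPM. Its mature log2 change was -8.58 ± 0.71 (SE, edgeR adjusted p = 1.39e-09), or -9.67 without FB_S replicate 3. It exceeded the young changes by -7.60 ± 0.83 and -7.35 ± 0.82 (SE, adjusted p = 1.32e-07 and 2.35e-07), or -8.69 and -8.44 without FB_S replicate 3. It was called lower in YFB_S than in YFB_L without FB_S replicate 1 or 3, with -1.23 in both cases, or without YFB_L replicate 1, with -1.68, and then counts as called the same way against 1 young tissue.

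The 758 gene models that turned round had been called the opposite way against at least 1 young tissue, and the same way against neither. Of these, 162 were called the opposite way in both young comparisons, 77 now higher and 85 now lower in the stipe. The 420 higher in the mature stipe had a median log2 change of 1.79 at maturity, -1.17 against the young cap and -1.35 against the young lamellae. The 338 lower had medians of -2.18, 1.29 and 1.24. These medians follow from the choice of the sets. Those now lower took 1.76% ± 0.111 of the reads in FB_S, 12.2% ± 0.61 in FB_CL and 6.21% ± 0.331 in YFB_S (SD, n = 3 each). Those now higher took 8.29% ± 0.524 in FB_S, 0.891% ± 0.039 in FB_CL and 1.46% ± 0.175 in YFB_S (SD, n = 3 each). They made up 6.32% of all tested gene models, and 14 of the 100 highest of FB_S and 16 of the 100 highest of FB_CL were among them. Carried-over gene models, 5.34% of all, were 7 and 12 of these lists, and those larger at maturity, 6.75% of all, were 2 and 8. Without the 2 young libraries 64 now higher and 129 now lower were called the opposite way in both young comparisons.

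Gene model 443459 was at 58.9, 123.6 and 58.8 CPM in FB_S, against 5.91, 7.12 and 5.14 CPM in FB_CL. It had 0.232, 0.28 and 0.766 CPM in YFB_S, against 2.42, 4.91 and 7.68 CPM in YFB_C and 8.3, 2.27 and 2.38 CPM in YFB_L. The mature stipe libraries were the highest of the 15 and the young stipe libraries the lowest. Its log2 change was 3.73 ± 0.70 at maturity (SE, edgeR adjusted p = 0.000117), -3.61 ± 0.77 against YFB_C (SE, adjusted p = 0.000618) and -3.40 ± 0.76 against YFB_L (SE, adjusted p = 0.000696). Without YFB_S replicate 3 the young values were -4.27 and -4.06, and without YFB_L replicate 1 the second was -2.52. Gene model 247921 was at 70.3, 74.9 and 68.4 CPM in FB_S, against 9.9, 6.42 and 6.93 CPM in FB_CL. It had 4.32, 3.77 and 7.84 CPM in YFB_S, against 27.9, 35.2 and 58.9 CPM in YFB_C and 110.3, 52.0 and 57.1 CPM in YFB_L. Stipe levels were high at maturity and low in the young fruiting body, and levels of cap and lamellae the reverse. Log2 changes were 3.20 ± 0.43 at maturity (SE, edgeR adjusted p = 1.79e-06), -2.94 ± 0.43 against YFB_C (SE, adjusted p = 8.62e-06) and -3.79 ± 0.44 against YFB_L (SE, adjusted p = 3.6e-07).

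Gene model 439300 was at 0.63, 2.7 and 0.72 CPM in FB_S, against 49.8, 54.5 and 41.6 CPM in FB_CL. It had 620.8, 697.3 and 815.3 CPM in YFB_S, against 2.95, 5.77 and 3.25 CPM in YFB_C and 25.3, 8.84 and 9.42 CPM in YFB_L. The young stipe, like the knots and primordia with 382.6 to 1184 CPM, was at a high level, and the mature stipe was the lowest of the 5 tissues. Its log2 change was -5.19 ± 0.55 at maturity (SE, edgeR adjusted p = 5.66e-08), 7.48 ± 0.59 against YFB_C (SE, adjusted p = 2.47e-09) and 5.61 ± 0.54 against YFB_L (SE, adjusted p = 2.66e-08). The mature value was -6.16 without FB_S replicate 2, and the one against YFB_L was 6.28 without YFB_L replicate 1. Gene model 445891 was at 0.866, 1.26 and 2.4 CPM in FB_S, against 85.1, 68.7 and 93.9 CPM in FB_CL. It had 45.6, 36.8 and 36.3 CPM in YFB_S, against 0.327, 0.312 and 0 CPM in YFB_C and 0.961, 1.3 and 2.0 CPM in YFB_L. Among the fruiting body tissues it was high in the young stipe and the mature cap with lamellae and low in the other three. The log2 change was -5.77 ± 0.65 at maturity (SE, edgeR adjusted p = 1.33e-07), 7.54 ± 0.76 against YFB_C (SE, adjusted p = 7.14e-08) and 4.79 ± 0.61 against YFB_L (SE, adjusted p = 1.13e-06). Without YFB_C replicate 3 the value against YFB_C was 6.92.

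**Figure D5:**
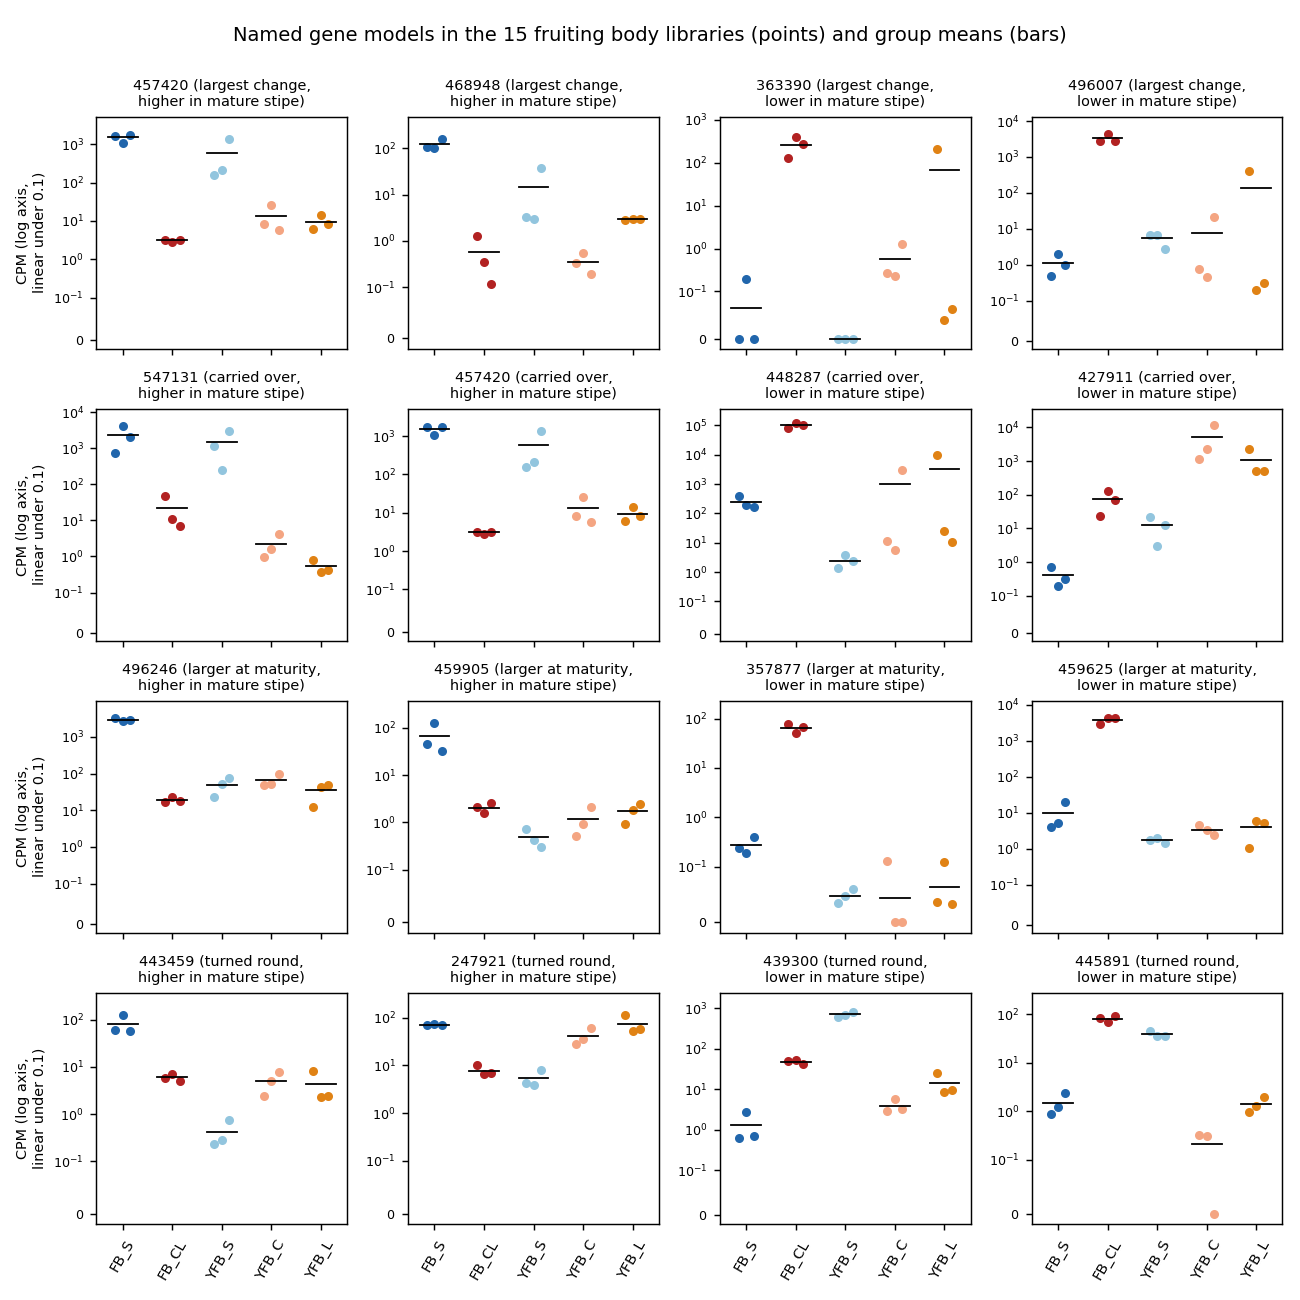
CPM of the named gene models (vertical axis, logarithmic above 0.1 CPM and linear below) in the 15 fruiting body libraries (points) with group means (bars), 1 panel per gene model and set, 457420 appearing in both of its sets. In the upper rows single young libraries stand apart, such as YFB_L replicate 1 at 9622 CPM for 448287, and in the lowest row the order of stipe and cap is opposite in the young and the mature fruiting body.

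Without YFB_C replicate 3 and YFB_L replicate 1 the counts of the classes changed less than the gene models behind them did. Without both libraries 613 differences were carried over, 933 were larger at maturity and 836 had turned round. Of the 640 carried-over gene models, 502 (78.4%) were among the 613. Of the 809 larger at maturity, 610 (75.4%) were among the 933, and of the 758 that had turned round, 605 (79.8%) were among the 836. Read the other way, 81.9% of the 613, 65.4% of the 933 and 72.4% of the 836 were in the sets from all libraries. Carried over as lower in the stipe were 281 in place of 327. The mature comparison uses neither library except through the shared filter, scaling and estimate of spread, and 4746 of its 4751 calls were found again.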

How the data were processed

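Polyadenylated RNA was sequenced in 29 libraries of 9 groups, with groups and replicate numbers taken from the sample titles. The authors deposited, per library, total read counts of 14242 gene models with the length of each in bases, per the file headers, and TPM, which were read and not tested. Reads had been assigned to gene models used as their own reference, so no genome position is given. Mapping software and build: not given in the sources used here. The deposited log2 RPKM matrix served only as an alternative. The submitters' processing notes name edgeR 3.4.2, limma 3.18.13 and R 3.0.2. The kit does not mark the strand, so overlapping genes on opposite strands cannot be told apart. None (0) of the identifiers was found among the 13657 genes of a RefSeq table for another strain, and no sequence or position is shown. Reads placed on 1 gene model only made up 99.8% to 99.9% in the mature libraries. No library was counted as a copy of another, since counts of replicates differed beyond sampling noise (chi-square at least 31 times its degrees of freedom).

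Counts were tested with edgeR 4.0.16 in R 4.3.3 (filterByExpr, TMM, 1 quasi-likelihood model for all 29 libraries, Benjamini-Hochberg adjustment over the 11990 gene models kept; 2252 were set aside). The SE of a log2 change was computed as its size over the root of its F statistic. Log2 CPM used a prior count of 2. Members, sets and lists were chosen with earlier results of these data known. Named gene models were at most 2 higher and 2 lower per set, called, with ranges that did not overlap and at least 10 RPKM in the higher group. They were those with the largest change, or with the largest of the smallest changes over the comparisons that define the set. Alternatives were DESeq2 1.42.0, scaling by library size alone or by relative log expression, limma 3.58.1 with pseudocounts of 1 and 0.1 on RPKM, other filters on low counts (none, or at least 10 CPM in 3 libraries), another fold threshold, fewer groups in the fit, the first flow cell alone, the replicate number as a block, the mean of young cap and lamellae as the counterpart, and each library left out.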

Additional observations from a re-analysis of the deposited data

Results flagged for a closer look

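The difference between stipe and cap with lamellae was itself different in the mature and the young fruiting body for 4498 gene models with the young cap as the counterpart and for 4748 with the young lamellae. These are tests of the change in the difference, and the values below are the mature log2 difference minus the young one, by edgeR's quasi-likelihood test.

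The named gene models that passed this test and were higher in the mature stipe had values against the young cap and the young lamellae of 3.49 and 3.00 for 457420, 7.67 and 6.74 for 496246, 6.30 and 6.83 for 459905, 7.34 and 7.12 for 443459, and 6.15 and 6.99 for 247921. Gene model 468948 passed against the young lamellae alone, with 5.49, and was 2.43 against the young cap (adjusted p = 0.237). Gene model 547131 passed against the young lamellae with -4.68, its stipe excess being smaller at maturity, and was -2.60 against the young cap (adjusted p = 0.0843). Gene model 457420 was no longer called against the young cap without YFB_C replicate 2, with 2.57, nor against the young lamellae without YFB_S replicate 1 or 2 or YFB_L replicate 2, with 2.55 to 2.60. Without YFB_S replicate 3, the highest young stipe library, the values were 5.14 and 4.65 for 457420. The same omission gave 7.73 and 4.67 for 468948 against the young lamellae and the young cap, both called, and 8.00 and 7.79 for 443459 against the young cap and the young lamellae. Without YFB_L replicate 1 the value of 443459 against the young lamellae was 6.24. The value of 547131 against the young cap was called without FB_S replicate 2, YFB_C replicate 3 or YFB_S replicate 2, with -3.35, -3.40 and -3.11. Against the young lamellae it was -3.37 without FB_CL replicate 1, -5.43 without FB_S replicate 2 and -3.60 without YFB_S replicate 3, and that of 468948 was 6.57 without FB_CL replicate 1.

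Those lower in the mature stipe had values of -11.00 and -6.85 for 496007, -7.81 and -7.44 for 357877, -7.60 and -7.35 for 459625, -12.67 and -10.80 for 439300, and -13.31 and -10.56 for 445891. For 496007 they were -14.60 without YFB_C replicate 3 and -15.85 without YFB_L replicate 1, its high young libraries. The second was not called without FB_S replicate 1 or 3, with -6.47 and -6.73. Without FB_S replicate 2 the values were -11.66 and -7.51 for 496007 and -13.64 and -11.77 for 439300, and that of 439300 against the young lamellae was -11.48 without YFB_L replicate 1. That of 445891 against the young cap was -12.69 without YFB_C replicate 3, and that of 496007 against the young lamellae was -6.26 without YFB_L replicate 2 or 3.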

How the results depend on the processing

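Under 28 or 29 settings per count, the counts of both directions together stayed within 1.5 times the reported ones except where the definition of a difference was changed. Counts of a single direction moved more with library size alone. Mature calls higher in FB_S were then 3678 in place of 2316, and those lower and larger at maturity 214 in place of 402. At 4-fold in place of 2-fold, 2281 gene models were called at maturity, 194 carried over, 515 larger at maturity and 244 turned round, and the changes from young to mature numbered 2718 with the young cap and 2853 with the young lamellae. With no fold threshold 968 were carried over and 1145 turned round. With the mean of young cap and lamellae as a single counterpart, 1363 were carried over, 2042 larger at maturity and 405 turned round, so the sizes of these classes depend on what the mature cap with lamellae is set against. Leaving out each of the 15 fruiting body libraries in turn gave 4353 to 4955 mature calls, 514 to 655 carried over, 725 to 888 larger at maturity, 671 to 834 turned round, and 4032 to 4862 and 4273 to 5033 changes from young to mature with the young cap and lamellae. With the replicate number as a block the counts were 4752, 645, 825, 739, 4448 and 4656, in the same order. Whether the numbers pair the samples is not stated in the labels, and 3 libraries per group are too few to settle it. Same-numbered FB_S and FB_CL libraries deviated from their group means with correlations of -0.12, -0.075 and 0.01. Every stipe library correlated best with a cap library of another number. Among the young tissues the same-numbered correlations ran from -0.47 to 0.4. Without YFB_C replicate 3 and YFB_L replicate 1 the changes from young to mature numbered 4737 and 5312, and 409 higher and 427 lower gene models had turned round. All 15 named gene models kept their mature call under each alternative that gave a value, 387 values in all. Their choice as large mature changes without overlap favours this. Many of these values leave out a young library, which hardly moves the mature change. DESeq2 gave no adjusted p for 496007. Values near 0 reads, such as those of 363390 and of 357877 in the young tissues, are limited by depth.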
